A study of Mus musculus with 45 samples.

Results

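The Hox genes of the 4 mouse clusters were followed in chromatin accessibility data from Ter119+ erythroblasts with or without Stag2. The members were all genes of the deposited gene score table named Hoxa, Hoxb, Hoxc or Hoxd with a number, which gave 39 of 24333 genes. The Hoxa cluster held 11 of them, Hoxb 10, Hoxc 9 and Hoxd 9. Stag2 is a cohesin subunit, and cohesin is the complex that extrudes chromatin loops. The samples were 3 Stag2 WT and 3 Stag2 KO libraries of single-nucleus ATAC, made as 10x multiome libraries from sorted Ter119+ cells, and are called WT1 to WT3 and KO1 to KO3 after the replicate numbers in their labels. Mice of both genotypes had received pIpC, an interferon-inducing RNA analogue used to start a gene deletion, and were sampled 6 to 8 weeks later, counted from its last dose. The Cre driver, strain, age and sex of the mice, and whether a library came from 1 mouse or several, were not given in the sources used here, so the p-values measure the spread between these libraries.

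Hox genes encode homeodomain transcription factors and lie in clusters in which gene order follows the order of use along the body axis. In blood, Hoxa and Hoxb genes are used by stem and early progenitor cells, where Hoxa9, Hoxa7, Hoxa10 and Hoxb4 are the best known members, and they are turned down as red cell precursors mature. Hox proteins bind DNA with TALE cofactors of the Pbx and Meis families. Trithorax (MLL) complexes keep the clusters active, and Polycomb complexes keep them silent.

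In the mm10 coordinates of the files, the Hoxa cluster lay on chromosome 6, Hoxb over chr11:96194361-96368253, Hoxc over chr15:102921131-103036852 and Hoxd over chr2:74668310-74765142. RefSeq promoter windows of 300 bases on GRCm38.p6, from 250 before to 50 after a start site, matched 22 of the 39 members. The windows of 3 members whose accessibility differed between the genotypes, and of Hoxa13 for contrast in base content, are shown from 5′ to 3′ on the gene's strand with each CpG in capitals. The windows of Hoxa9, Hoxb4 and Hoxa13 lie at the gene starts of the score table, while that of Hoxa7 lies at another RefSeq start, inside the gene as the score table has it.
Hoxa7, minus strand, chr6:52218524-52218823: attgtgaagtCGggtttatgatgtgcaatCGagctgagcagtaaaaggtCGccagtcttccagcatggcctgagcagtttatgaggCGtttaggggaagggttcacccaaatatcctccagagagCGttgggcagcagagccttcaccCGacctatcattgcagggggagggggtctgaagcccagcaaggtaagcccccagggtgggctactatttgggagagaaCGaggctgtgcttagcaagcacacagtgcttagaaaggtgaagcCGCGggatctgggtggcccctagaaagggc
Hoxa9, minus strand, chr6:52227321-52227620: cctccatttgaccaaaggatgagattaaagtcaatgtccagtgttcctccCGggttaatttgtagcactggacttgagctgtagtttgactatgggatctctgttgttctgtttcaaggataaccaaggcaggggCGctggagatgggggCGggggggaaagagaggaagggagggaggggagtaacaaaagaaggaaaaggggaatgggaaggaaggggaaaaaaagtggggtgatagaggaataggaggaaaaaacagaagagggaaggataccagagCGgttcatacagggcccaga
Hoxb4, plus strand, chr11:96318017-96318316: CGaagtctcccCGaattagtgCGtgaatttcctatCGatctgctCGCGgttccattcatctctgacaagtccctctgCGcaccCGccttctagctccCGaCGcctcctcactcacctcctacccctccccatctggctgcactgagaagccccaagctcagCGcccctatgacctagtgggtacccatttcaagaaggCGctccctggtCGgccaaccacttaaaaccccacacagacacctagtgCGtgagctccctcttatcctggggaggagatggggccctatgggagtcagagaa
Hoxa13, minus strand, chr6:52260831-52261130: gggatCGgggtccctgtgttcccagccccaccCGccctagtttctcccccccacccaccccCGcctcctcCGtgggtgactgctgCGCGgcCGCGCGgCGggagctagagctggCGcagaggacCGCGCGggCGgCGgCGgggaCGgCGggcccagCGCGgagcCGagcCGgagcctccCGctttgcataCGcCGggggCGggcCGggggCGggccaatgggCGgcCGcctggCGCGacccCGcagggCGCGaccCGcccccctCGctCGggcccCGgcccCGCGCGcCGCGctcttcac
The Hoxa9 window held 4 CpG, the Hoxa7 window 9, the Hoxb4 window 14 and the Hoxa13 window 45. Over the 24 windows of the 22 members the median was 14.5 CpG and 57.7% G or C, and over 32851 windows of all genes it was 7 CpG and 52.7% G or C. The letters AGATAA or TGATAA, forms of the core bound by Gata1, the erythroid GATA factor, were searched on both strands. They stood in 3 of the 24 Hox windows, those of Hoxb8, Hoxd8 and Hoxd12, and in 18.6% of all windows. Forms of the core that end in G were not searched. TGATAG stands in the printed Hoxa9 window and, on the other strand, in that of Hoxa7.

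The clusters also hold miRNA genes, whose mature products are printed from RefSeq with the seed, bases 2 to 8, in capitals. Mir10a lies just before Hoxb4 and Mir10b in the Hoxd cluster, and their 5p products share 1 seed.
miR-10a-5p: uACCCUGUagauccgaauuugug
miR-10b-5p: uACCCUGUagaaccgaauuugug
Mir196a-1 (Hoxb), Mir196a-2 (Hoxc) and Mir196b (between Hoxa9 and Hoxa10) give products with another shared seed, and miR-196 is known to cleave the Hoxb8 transcript.
miR-196a-5p: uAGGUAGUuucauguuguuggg
miR-196b-5p: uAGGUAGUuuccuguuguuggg

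The measure throughout is the gene score, a signal that sums ATAC fragments around a gene. It reports open chromatin and not transcription, and neighbouring genes in a dense cluster may share fragments, which was not checked. Each library's mean score over its nuclei was rescaled to a sum of 1000000, so a score of 5 is 5 parts in 1000000 of a library's signal. In a mean over nuclei, fewer open nuclei and less signal per nucleus cannot be told apart. The libraries held 4617 to 6990 nuclei and 46782673 to 66286151 fragments, and the authors had sorted nuclei into Early, Int and Late classes, Int being read here as intermediate. Early held 16 to 310 nuclei per library, which was at least 50 in WT1, WT2 and KO1 only. Late nuclei were shallower, with median fragments of 5693 to 6812 against 10121 to 14998 in Int nuclei and 38126 to 53468 in Early nuclei. Of 33320 distinct barcodes, 725 occurred in more than 1 library. The score over Stag2, the deleted gene, does not check the labels, because accessibility around a gene can remain when part of it is deleted. It was 64.2, 65.7 and 65.9 in WT1 to WT3 and 61.0, 65.1 and 62.4 in KO1 to KO3 (log2 fold change -0.05 ± 0.05 SE, limma adjusted p = 0.348).

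Most Hox genes had very low scores. Over all nuclei the median member scored 2.53 in the WT mean and 2.95 in the KO mean, where the median of all genes was 12.02 and 14.8. The lowest was Hoxd10, a posterior Hoxd gene, at 0.92 to 1.73 in WT and 0.76 to 1.49 in KO libraries. Only 8 members had a mean of at least 5, the level required for the main test: Hoxa3, Hoxa4, Hoxa7, Hoxa9, Hoxb1, Hoxc4, Hoxc10 and Hoxc13. No Hoxd gene reached it.

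Hoxc10, a posterior Hox gene known for hindlimb and spinal cord patterning, stood apart from all other members. Its score was 34.4, 38.1 and 48.9 in WT1 to WT3 and 61.5, 69.5 and 76.5 in KO1 to KO3. Per kb of gene it had 10.7, followed by Hoxa4 with 4.28 and Hoxb1 with 2.86, and 85.0% of all genes had less. Its neighbours did not share this level: the score of Hoxc9 was 1.54 to 2.61, that of Hoxc11 1.26 to 2.55 and that of Mir196a-2, which lies between Hoxc9 and Hoxc10, 1.56 to 2.06 over the 6 libraries. The high signal in this stretch of the Hoxc cluster (Hoxc10, chr15:102966796-102971898) was thus assigned to 1 gene.

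**Figure D1:**
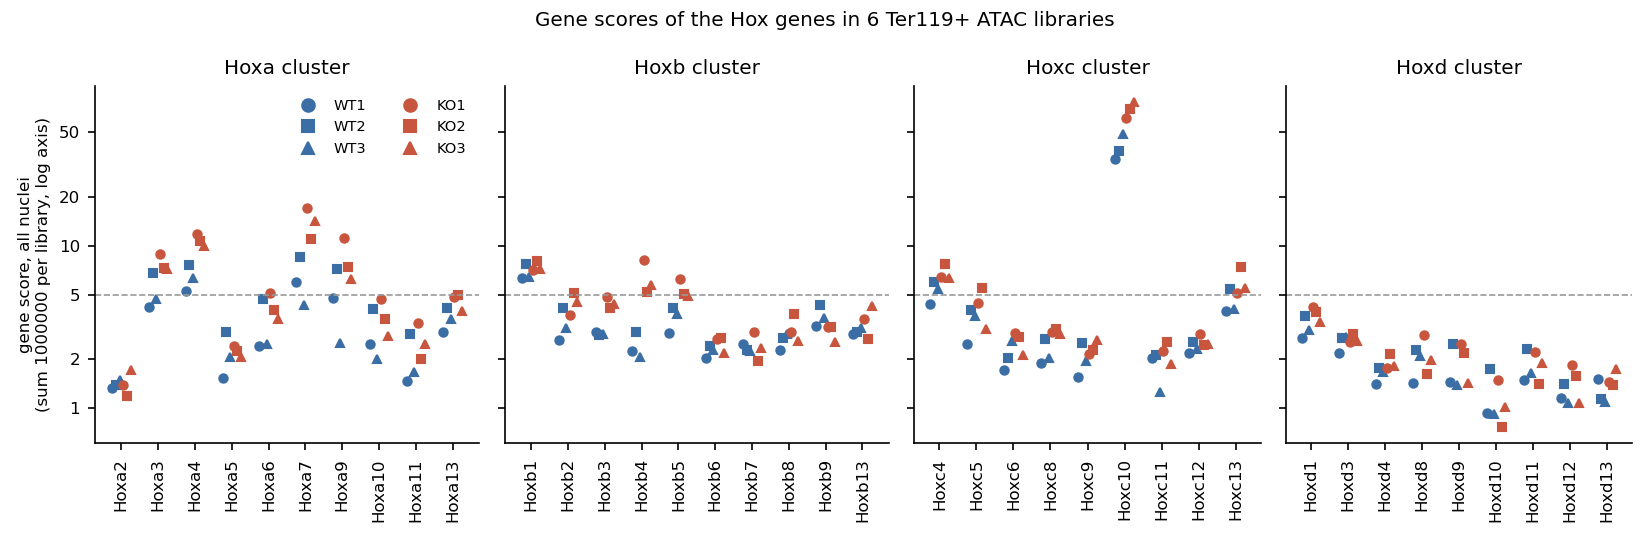
Gene score over all nuclei (vertical log axis, parts of 1000000 per library) for the Hox genes in paralogue order along the horizontal axis, 1 panel per cluster, with 1 of the 39 members not drawn. Blue symbols are WT libraries and red symbols KO libraries, and the dashed line marks the score of 5 required for the main test; Hoxc10 lies at 34.4 to 76.5 while every Hoxd gene is under the line.

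Absence of Stag2 was compared with its presence over all nuclei first. With no filter on low scores, 9 of the 39 members were called higher in KO and 0 lower at an adjusted p under 0.05 (limma). These were Hoxa3, Hoxa4, Hoxa7, Hoxa9, Hoxb3, Hoxb4, Hoxb5, Hoxc8 and Hoxc10. This is 23.1% of the members, and 25.9% of the 24032 genes with a score were called higher in the same fit, so the share of Hox genes called was near that of genes in general. Every KO library lay above every WT library for 10 of the 39 members, against 37.2% of all genes, and below for 1 member, Hoxb9, against 14.3%. The median log2 fold change was +0.20 over the members and +0.15 over all genes. By cluster it was +0.30 for Hoxa, +0.17 for Hoxb, +0.27 for Hoxc and +0.13 for Hoxd. By position it was +0.28 for anterior genes (paralogues 1 to 4), +0.20 for central genes (5 to 8) and +0.17 for posterior genes (9 to 13). Over all nuclei these medians lie close together, and the differences that stood out there were those of single genes.

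Among the central genes Hoxa7, a stem and progenitor cell gene, scored 6.01, 8.56 and 4.32 in WT1 to WT3 against 17.0, 11.01 and 14.3 in KO1 to KO3. The groups did not overlap, and the lowest KO library was above the highest WT library. In the fit of genes with a mean of at least 5, the log2 fold change was +1.07 ± 0.18 (SE, 3 libraries per genotype, limma adjusted p = 0.000154). The anterior gene Hoxb4, which expands blood stem cells when overexpressed, was too low over all nuclei for that fit. It had 2.23, 2.94 and 2.05 in WT1 to WT3 and 8.15, 5.19 and 5.70 in KO1 to KO3. All KO libraries were higher, by +1.10 ± 0.15 on the log2 scale with no filter (limma adjusted p = 7.38e-05). Its neighbour Hoxb5, a marker of long-term stem cells, had 2.91, 4.14 and 3.81 in WT and 6.26, 5.01 and 4.91 in KO libraries, again without overlap (+0.47 ± 0.14, limma adjusted p = 0.0149, no filter). Hoxb3, an anterior gene on the other side of Hoxb4, had 2.94, 2.83 and 2.87 in WT and 4.85, 4.13 and 4.38 in KO libraries (+0.49 ± 0.11, limma adjusted p = 0.0046, no filter). Of the remaining central genes Hoxc8 was called at the edge of the threshold (+0.32 ± 0.12, limma adjusted p = 0.0482, no filter).

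In the anterior part of the Hoxa cluster, Hoxa4 scored 5.29, 7.58 and 6.33 in WT1 to WT3 against 11.8, 10.7 and 10.0 in KO1 to KO3. The KO libraries were all higher, and the log2 fold change was +0.69 ± 0.13 (limma adjusted p = 0.000397, mean of at least 5). Hoxa3, whose gene body spans Hoxa4 in the annotation, had 4.21, 6.83 and 4.70 in WT and 8.85, 7.30 and 7.19 in KO libraries (+0.51 ± 0.14, limma adjusted p = 0.0084). Because the 2 genes overlap, their scores are not independent. Hoxa2, which patterns the hindbrain, was the lowest Hoxa gene, at 1.33 to 1.496 in WT and 1.18 to 1.71 in KO libraries, so the ranges of the genotypes overlapped.

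Of the posterior genes, Hoxa9, a leukaemia-associated gene of stem and progenitor cells, had 4.79, 7.14 and 2.502 in WT1 to WT3 and 11.1, 7.36 and 6.25 in KO1 to KO3. KO3 lay within the range of the WT libraries. Its log2 fold change was +0.72 ± 0.24 with no filter (limma adjusted p = 0.0293), and it reached a mean of 5 only through the KO libraries. In the filtered fit it fell short of the threshold without KO1 (+0.50, adjusted p = 0.0718) and without WT3 (+0.39, adjusted p = 0.0979). Hoxa10, next to it, had 2.49, 4.08 and 1.998 in WT and 4.69, 3.56 and 2.78 in KO libraries, and the groups overlapped. Hoxb9 was the only member whose KO libraries all lay below its WT libraries, at 3.15, 3.15 and 2.55 against 3.19, 4.29 and 3.56, and it was not called (-0.24 ± 0.13, limma adjusted p = 0.133, no filter). Hoxc10 differed by +0.77 ± 0.10 on the log2 scale (limma adjusted p = 8.64e-06), with all KO libraries above all WT libraries. Hoxc10 was called under each of the 19 alternative settings run on all nuclei, with log2 fold changes of 0.62 to 0.91.

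A pair of weaker calls in the Hoxc cluster sat near the threshold. Hoxc4 had 4.35, 5.94 and 5.37 in WT and 6.46, 7.67 and 6.30 in KO libraries (+0.33 ± 0.12, limma adjusted p = 0.0355). Hoxc13, a hair and nail gene at the other end, had 3.97, 5.45 and 4.10 in WT and 5.08, 7.39 and 5.51 in KO libraries (+0.34 ± 0.13, limma adjusted p = 0.0487). With no filter neither was called (limma adjusted p = 0.0558 for Hoxc4 and 0.0754 for Hoxc13), and Hoxc13 reached a mean of 5 only through the KO libraries. In the filtered fit Hoxc4 was not called without KO1, KO2, WT1 or WT3 (adjusted p of 0.0514 to 0.188), nor Hoxc13 without KO3, WT1 or WT3 (adjusted p of 0.0524 to 0.153), and without KO2 Hoxc13 was too low to be tested. Hoxb1, the first paralogue of the Hoxb cluster, had 6.33, 7.74 and 6.43 in WT and 7.04, 8.02 and 7.23 in KO libraries and was not called (+0.11 ± 0.11, limma adjusted p = 0.439). It was the highest Hoxb member on this scale, and its genotypes overlapped.

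Among the 8 members tested in the filtered fit, 7 were called higher and 0 lower, where 29.1% of 17682 genes were called higher. Without WT3, 4 of 8 members were called, where 6363 of 17872 genes were called, 2350 of them lower. When each nucleus was weighted by its fragments, 13 members could be tested and 2 were called, Hoxb4 and Hoxc10. In that fit 2415 of 18859 genes were called, 874 of them lower. Hoxa7 had +0.91 (limma adjusted p = 0.071) and Hoxa4 +0.56 (limma adjusted p = 0.0817) in it. A gene this low passes the filter more easily when it is high in 1 group, so these counts are descriptions only. In the fit without weights, genes with mean scores of 5 to 20 were called higher in 43.2% of cases. The scaling also moved the calls: the median log2 fold change of all tested genes was 0.10 as scaled here and -0.05 after median centring. Of all genes called, 67.1% were higher in KO as scaled here, 35.4% after median centring, 46.9% after quantile normalization and 54.0% after cyclic loess. Hoxa4, Hoxa7 and Hoxc10 were called higher under each of these, while Hoxa3 and Hoxa9 were lost under quantile normalization and cyclic loess and Hoxc4 and Hoxc13 under all 3 alternatives.

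Several features of the libraries differed with genotype. The library medians of the share of fragment ends lying in peaks were 62.2% to 64.7% in WT and 57.4% to 59.9% in KO libraries. Median fragments of Int nuclei were 12877, 12671 and 10121 in WT1 to WT3 and 14532, 13911 and 14998 in KO1 to KO3. The summed score of 14 stem and progenitor markers was 387 to 436 in WT and 449 to 491 in KO libraries. Of the 14, 6 were called higher and 2 lower, and none was at 0. The summed score of 13 erythroid markers, all of them tested and 11 called lower, was 2596 to 2842 in WT and 2247 to 2463 in KO libraries. Myeloid markers summed to 230 to 269 in WT and 281 to 303 in KO libraries, with 6 of 11 tested called higher, lymphoid markers to 135 to 149 and 160 to 180, with 4 of 7 tested called higher, megakaryocyte markers to 277 to 309.5 and 310.03 to 324, and mast and basophil markers to 41.9 to 51.5 and 68.3 to 79.8. Of 5 megakaryocyte markers tested, 1 was called higher and 2 lower. Of 2 mast and basophil markers tested, 1 was called higher and 0 lower. Gata2 is counted in both the mast and basophil list and the stem and progenitor list. Over all genes tested, 29.1% were called higher and 14.2% lower. The part of these differences in the Hox scores was not tested. Without the Early nuclei, 7 of 8 members tested were called, as many as with them, and Hoxa7 differed by +1.10. In that fit 9073 of 17578 genes were called, 2915 of them lower. With the Early nuclei it was 7661 of 17682 genes, 2517 of them lower.

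The classes were then compared separately. In Int nuclei, 4 of the 39 members were called higher and 0 lower with no filter (10.3% of members, against 9.93% of all genes). They were Hoxa4, Hoxa7, Hoxb4 and Hoxc10, the same 4 as in the filtered fit of 13 members, where 12.7% of all genes were called higher. Hoxa7 scored 9.57, 9.24 and 4.96 in WT1 to WT3 against 18.5, 12.5 and 16.5 in KO1 to KO3 (log2 fold change +0.94 ± 0.19, limma adjusted p = 0.000473). It was called under 15 of 17 alternative settings (lowest +0.29). Hoxb4 had 4.24, 3.79 and 2.36 in WT and 7.53, 5.82 and 6.57 in KO libraries (+0.79 ± 0.18 with no filter, limma adjusted p = 0.00458), and it reached a mean of 5 only through the KO libraries. Hoxa4 had 7.42, 10.4 and 7.35 in WT and 13.6, 15.2 and 13.5 in KO libraries (+0.69 ± 0.15, limma adjusted p = 0.00163). Hoxc10 scored 33.3, 35.6 and 38.8 in WT and 46.5, 43.6 and 54.4 in KO libraries (+0.41 ± 0.08 with no filter, limma adjusted p = 0.000885). For these 4 genes every KO library was above every WT library. Int nuclei were deeper in KO libraries. Among Int nuclei of 8000 to 20000 fragments, 4 of 10 members tested were called, as were 4489 of 19255 genes. Hoxa9 was not called in Int nuclei (+0.55 ± 0.21, limma adjusted p = 0.0722), with KO3 at 6.90 and WT2 at 7.74. It was called without WT2 (+0.76) or without KO3 (+0.67). The difference was smaller without WT3 (+0.19, limma adjusted p = 0.473) and without KO1 (+0.37, limma adjusted p = 0.306). It was called under 4 of 17 alternative settings (lowest +0.017).

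In Late nuclei, 14 of the 39 members were called higher and 0 lower with no filter, which is 35.9% of members and equals the 35.9% of all genes called higher. Among genes with a mean under 5 it was 43.3%. The members called included 7 of the 11 Hoxa genes, 4 of the 10 Hoxb genes, Hoxc10, Hoxd1 and Hoxd4. By cluster the median log2 fold change was +0.53 for Hoxa, +0.24 for Hoxb, +0.22 for Hoxc and +0.24 for Hoxd. Over all genes it was +0.19. Every KO library lay above every WT library for 14 of the 39 members and for 10223 of 24027 genes. By cluster these were 8 of the 11 Hoxa, 3 of the 10 Hoxb, 1 of the 9 Hoxc and 2 of the 9 Hoxd genes. Neighbouring Hoxa genes may share fragments, so these genes cannot be taken as independent. Hoxa7 scored 3.6, 4.53 and 3.30 in WT1 to WT3 against 8.93, 9.20 and 11.9 in KO1 to KO3 (+1.19 ± 0.14 with no filter, limma adjusted p = 2.63e-05). Hoxb4 had 1.07, 1.01 and 1.60 in WT and 4.65, 4.10 and 4.72 in KO libraries (+1.31 ± 0.15 with no filter, limma adjusted p = 2.01e-05), the largest log2 fold change of any member in this class. Hoxc10 had 34.9, 40.2 and 62.7 in WT and 77.5, 90.4 and 97.7 in KO libraries (+0.97 ± 0.15, limma adjusted p = 0.000161). WT3 was the highest WT library and still below the lowest KO library. Hoxa9 had 2.96, 3.38 and 1.74 in WT and 5.43, 6.29 and 5.41 in KO libraries (+0.89 ± 0.17 with no filter, limma adjusted p = 0.00105). Hoxa10 had 1.59, 1.77 and 1.28 in WT and 2.64, 2.86 and 2.40 in KO libraries (+0.52 ± 0.14 with no filter, limma adjusted p = 0.0102). For both genes the genotypes did not overlap in this class. With the filter, 5 members were tested and 3 called higher, Hoxa4, Hoxa7 and Hoxc10, where 32.9% of all genes were. Of the 5, Hoxa4, Hoxa7, Hoxb1 and Hoxc4 passed that filter only through the KO libraries, so this count is a description only. In Late nuclei Hoxa4 was not called under quantile normalization (+0.24), cyclic loess (+0.22) or in nuclei of 5000 to 10000 fragments (+0.42).

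Of the 9 Hoxd genes, 2 were called higher in Late nuclei, Hoxd1 and Hoxd4, where 35.9% of all genes were, and 0 in Int nuclei, where 9.93% of all genes were. Hoxd1, the anterior end of the cluster and its highest member, had 1.43, 1.90 and 1.76 in WT and 2.56, 3.18 and 2.70 in Late nuclei of KO libraries (+0.50 ± 0.14 with no filter, limma adjusted p = 0.0122). In Int nuclei its values were 5.10, 5.38 and 3.93 in WT and 5.50, 4.71 and 4.14 in KO libraries, and the genotypes overlapped. In Int nuclei 7 of the 9 Hoxd genes had a log2 fold change below 0, as had 38.0% of all genes, and none was called.

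Whether the genotype difference itself differed between Late and Int nuclei was tested within libraries. No Hox gene passed (0 of the 5 members tested, where 0.221% of 15873 genes did, limma), and 2 of the 5, Hoxb1 and Hoxc10, had an unadjusted p under 0.05. Of the 5, Hoxa4, Hoxa7, Hoxb1 and Hoxc4 passed the filter in Late nuclei only through the KO libraries, so these counts are descriptions only. For Hoxb1 the unadjusted p was 0.0557 with no filter (limma). With no filter 0 of the 39 passed, and 7 of them had an unadjusted p under 0.05 (Hoxa10, Hoxb8, Hoxc10, Hoxd1, Hoxd4, Hoxd9 and Hoxd13), where 20.1% of all genes did. For Hoxc10 the difference was +0.56 ± 0.16 on the log2 scale (limma adjusted p = 0.137). It passed only when WT3 was left out (+0.75, adjusted p = 0.0188). For Hoxa7 it was +0.25 ± 0.22 and for Hoxa4 -0.07 ± 0.18, and neither was called.

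**Figure D2:**
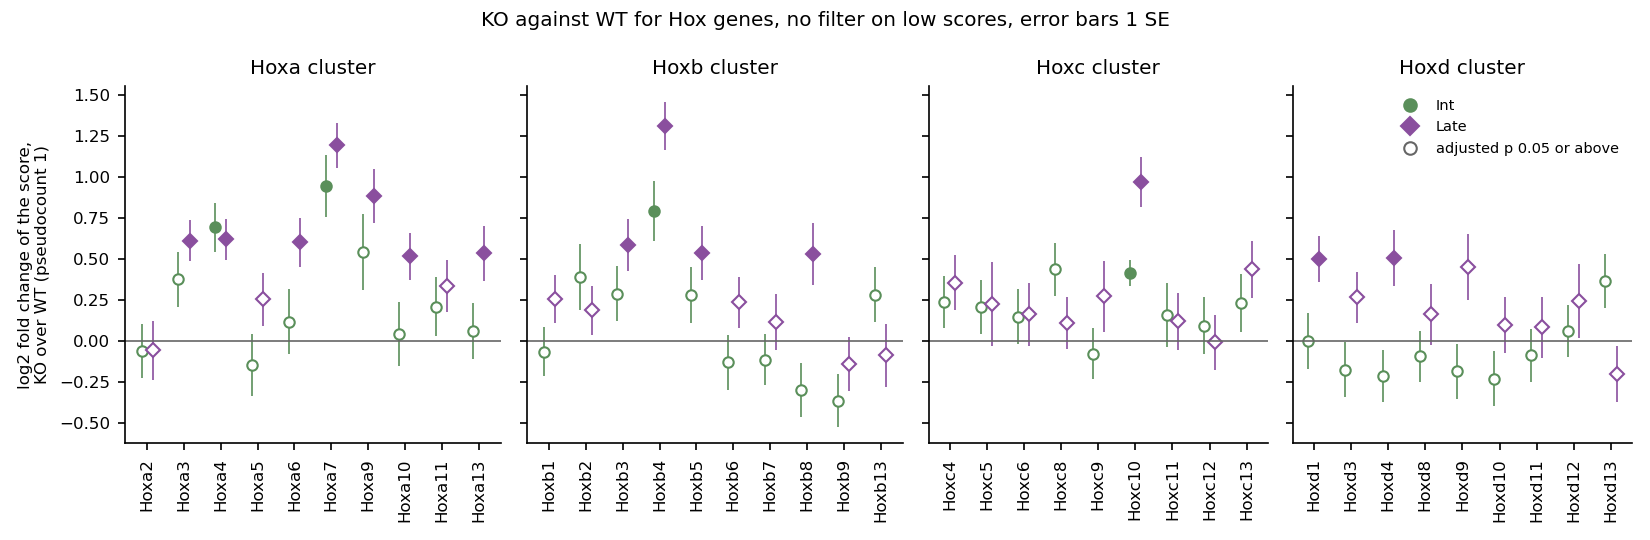
Log2 fold change of the gene score, KO over WT (vertical axis, pseudocount 1, no filter), for the same Hox genes in paralogue order, in Int nuclei (circles) and Late nuclei (diamonds). Bars are 1 SE, filled symbols passed an adjusted p of 0.05 (4 members in Int, 14 in Late), and Hoxb4 in Late nuclei is the highest at +1.31.

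The authors' clusters of nuclei were largely split by genotype, so they give only a partial check. Cluster C5 of the Int class held 628 WT and 1698 KO nuclei, and within it 0 of the 10 members tested were called (limma), where 171 genes, 0.879% of all tested, were, and Hoxa4 alone had an unadjusted p under 0.05. Every KO library lay above every WT library of C5 for 10 of the 39 members, against 12.3% of all genes, and below for Hoxd1 and Hoxd4, against 6.68% of all genes. Hoxd1 scored 4.71 to 5.89 in WT and 3.17 to 4.08 in KO libraries. Hoxa4 scored 0 to 7.44 in WT libraries against 14.8 to 16.9 in KO libraries of C5, without overlap, and its log2 fold change was +2.06 (limma adjusted p = 0.207). Its WT mean in C5 was 4.79, so it passed the filter there only through the KO libraries. Hoxb4, too low in C5 to be tested, scored 0 to 0.84 in WT libraries against 4.90 to 5.81 in KO libraries, which did not overlap, and Hoxa7 scored 4.25 to 18.7 against 9.45 to 13.5. Hoxc10 had 34.6 to 59.4 in WT and 44.7 to 54.4 in KO libraries of C5, which overlap. In the Late class, cluster C2 held 7070 KO and 190 WT nuclei, and Hoxc10 scored 76.2 to 97.2 in its KO libraries and 43.4 to 153 in its few WT nuclei. Cluster C3, the Late cluster of WT nuclei (10059), had 34.5 to 60.8.

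The share of nuclei with any score over a gene was read in nuclei of 5000 to 10000 fragments. In this window the median fragments of the libraries were 6850 to 7499.5 (WT) and 7088.5 to 7317 (KO) in Late nuclei and 7488 to 7639 (WT) and 7546.5 to 7835.5 (KO) in Int nuclei, while the share of ends in peaks remained lower in KO in Late nuclei (60.0% to 61.7% against 63.9% to 65.8%). Its part in the shares was not tested. For Hoxc10 in Late nuclei it was 16.5%, 20.1% and 26.5% in WT1 to WT3 and 29.3%, 36.9% and 40.9% in KO1 to KO3. Without that depth limit it was 15.4% to 21.6% and 26.4% to 36.5%. In Int nuclei of this window it was 13.7% to 15.3% in WT and 20.7% to 28.8% in KO libraries. The KO libraries were higher in both classes. In scores this sparse the share rises with the mean signal per nucleus, so it does not tell apart more nuclei with signal from more signal per nucleus.

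For Hoxa7 in Late nuclei of this window the share was 1.91%, 2.13% and 1.80% in WT and 4.73%, 4.50% and 4.54% in KO libraries. Hoxb4 had 0.74%, 0.79% and 0.50% in WT and 2.24%, 1.53% and 2.05% in KO libraries. For comparison Hoxd10, the lowest member, had 0.19% to 0.39% in WT and 0.15% to 0.52% in KO libraries, and its ranges overlapped. These shares are low at this depth, and a nucleus without a score is not shown to be closed.

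**Figure D3:**
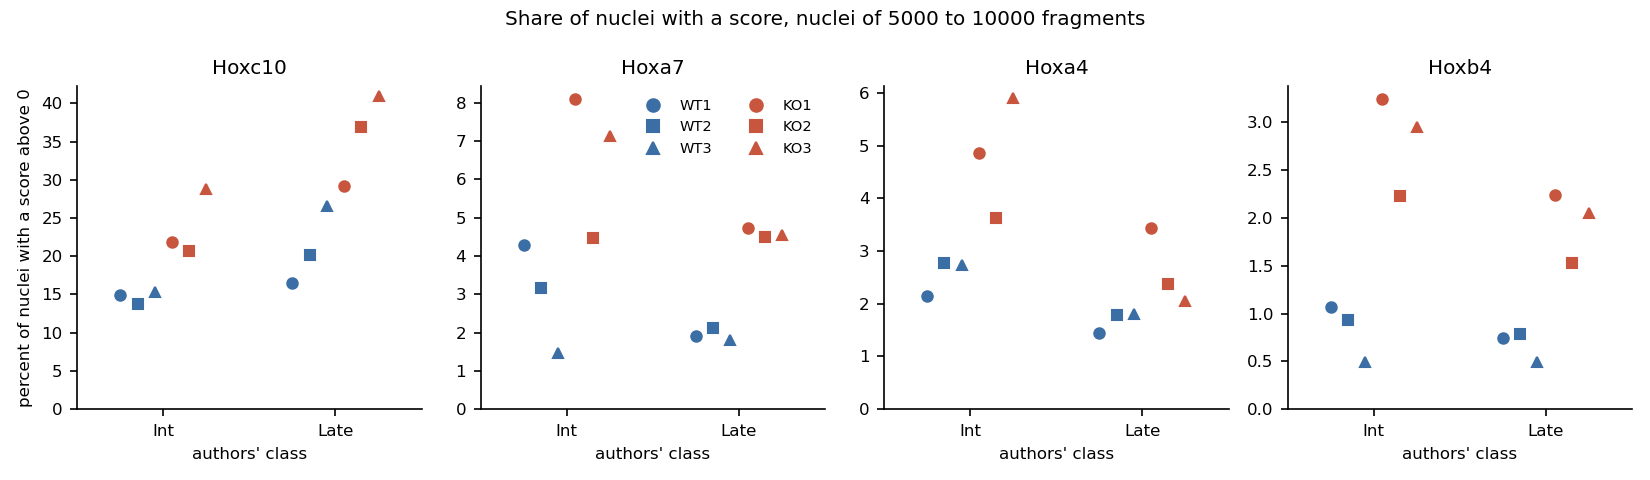
Percent of nuclei with a gene score above 0 (vertical axis) among nuclei of 5000 to 10000 fragments, in Int and Late classes, for Hoxc10, Hoxa7, Hoxa4 and Hoxb4. Each symbol is 1 library (blue WT, red KO), and for Hoxc10 the Late KO libraries sit between 29.3% and 40.9%, above the WT libraries at 16.5% to 26.5%.

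Scores were next followed across the classes, as a description without a test. In the 3 libraries with at least 50 Early nuclei, 34 of the 39 members had a higher score in Early than in Int nuclei in every library, against 43.4% of all genes. No share was taken for genes of similarly low score alone. The median log2 difference was +1.05 over the members and +0.05 over all genes, and by cluster it was +1.38 for Hoxa, +1.11 for Hoxb, +0.76 for Hoxc and +1.03 for Hoxd. Hoxa9 had the largest median log2 difference over these 3 libraries, although Hoxa6, Hoxa10 and Hoxb4 exceeded it in KO1. It scored 40.9, 49.0 and 51.3 in Early nuclei of WT1, WT2 and KO1 and 6.85, 7.74 and 11.03 in their Int nuclei. Hoxa7 had 35.2, 53.0 and 63.0 in Early and 9.57, 9.24 and 18.5 in Int nuclei. Hoxb4 had 10.05, 18.4 and 37.5 in Early and 4.24, 3.79 and 7.53 in Int nuclei. The 5 members without a rise in every library were Hoxa2, Hoxb1, Hoxc11, Hoxc12 and Hoxc13.

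The Early class of these 3 libraries also had the highest summed score of the 14 stem and progenitor markers, 831 to 932 against 494 to 531 in their Int nuclei. Markers of other cell types were higher in Early nuclei too: mast and basophil markers summed to 175 to 189 against 54.7 to 88.2 in Int nuclei, lymphoid markers to 260 to 283 against 181 to 210 and myeloid markers to 288 to 316 against 215 to 258. The mast and basophil sum includes Gata2, which is also a stem and progenitor marker here. Megakaryocyte markers overlapped, at 327 to 362 in Early and 322 to 330 in Int nuclei. The erythroid markers summed to 1137 to 1332 in Early and 2098 to 2471 in Int nuclei. Early nuclei were deeper than Int nuclei. Their median start site enrichment in WT1, WT2 and KO1 was 19.6, 19.4 and 17.3, against 30.7, 32.3 and 30.9 in Int nuclei. Their median share of ends in peaks was 50.3%, 47.9% and 45.2%, against 55.3%, 56.8% and 55.1% in Int nuclei. The part of depth, of these measures and of the other markers in the Hox difference was not tested.

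From Int to Late nuclei, 31 of the 39 members were lower in all 6 libraries, against 56.6% of all genes and 75.2% of genes with a mean under 20. The median log2 difference was -0.72 over the members and -0.34 over all genes, with -0.64 for genes under 20. In nuclei of 5000 to 10000 fragments, 15 of the 39 members were lower in all 6 libraries, against 38.3% of all genes and 48.3% of those under 20. Hoxc10 went the other way. Its Late score was above its Int score in all 6 libraries, by 0.07, 0.17 and 0.68 on the log2 scale in WT1 to WT3 and by 0.72, 1.03 and 0.83 in KO1 to KO3, where 19.3% of all genes were higher in all 6. In Early nuclei Hoxc10 had 34.0, 38.3 and 63.7 in WT1, WT2 and KO1, near its Int values in the WT libraries.

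**Figure D4:**
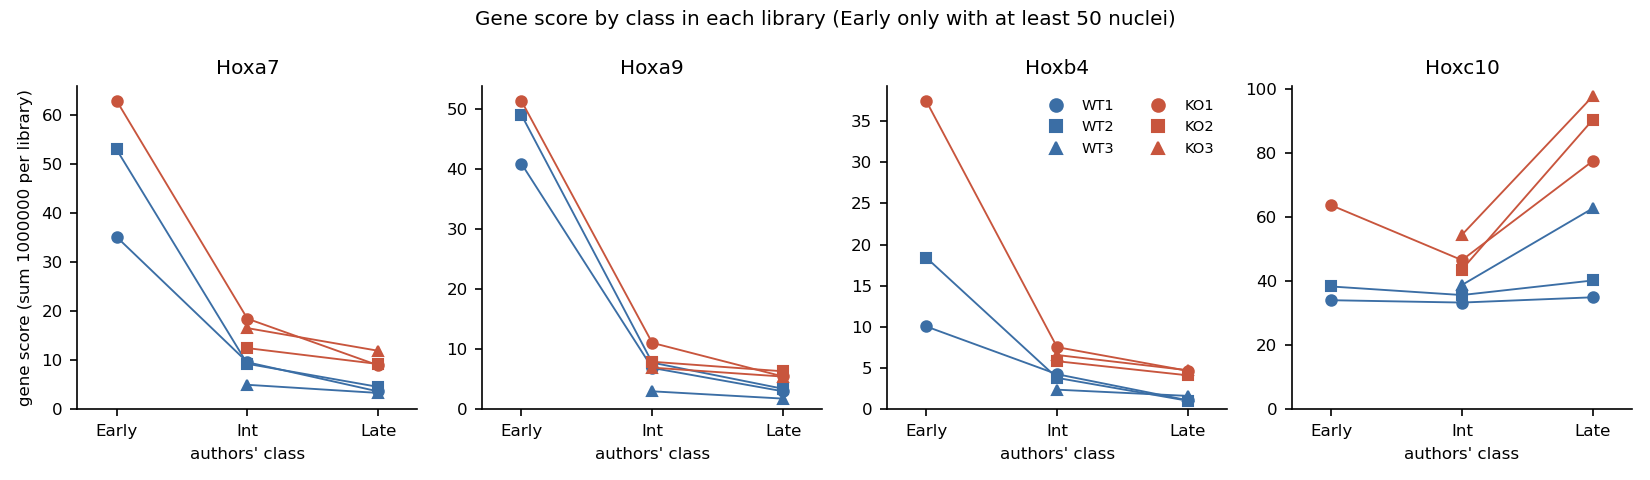
Gene score (vertical axis, parts of 1000000 per library) in the authors' Early, Int and Late classes for Hoxa7, Hoxa9, Hoxb4 and Hoxc10. Each line is 1 library (blue WT, red KO), with Early shown only for the 3 libraries with at least 50 such nuclei. Hoxa7, Hoxa9 and Hoxb4 descend from Early to Late in each line, and Hoxc10 is higher in Late than in Int nuclei in all 6.

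Other features inside the clusters were compared to see how far a difference reached. Mir10a (chr11:96317165-96317274) scored 2.62, 4.99 and 3.6 in WT1 to WT3 against 12.9, 8.73 and 8.87 in KO1 to KO3. The KO libraries were all higher, with a log2 fold change of +1.25 ± 0.17 with no filter (limma adjusted p = 8.15e-05). Mir10a reached a mean of 5 only through the KO libraries, and it may share fragments with Hoxb4. Mir10b in the Hoxd cluster had 2.70 to 3.44 in WT and 2.62 to 3.54 in KO libraries, and these ranges overlapped. Mir196b had 3.79, 6.88 and 2.82 in WT and 7.26, 6.45 and 3.35 in KO libraries and was not called (+0.30 ± 0.22, limma adjusted p = 0.276). Hoxaas3, an antisense RNA gene over Hoxa3, was called higher (+0.50 ± 0.14, limma adjusted p = 0.00943), but not without WT1, under cyclic loess, under quantile normalization or with the mean weighted by fragments (adjusted p of 0.0569 to 0.187).

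Within 500 kb of the clusters the neighbours did not move as 1 block, and over all genes tested 29.1% were called higher and 14.2% lower. Beside Hoxa, 2 of 5 tested genes were called higher and 0 lower, Skap2, an adaptor protein gene, by +0.49 ± 0.09 and 1700094M24Rik by +0.37 ± 0.11. The latter was called under 10 of 18 alternative settings. Beside Hoxb, 0 of 23 were called higher and 5 lower, namely Abi3 at -0.31 ± 0.04, Phospho1 at -0.30 ± 0.04, Zfp652, Zfp652os and Cbx1, which encodes a heterochromatin protein. Beside Hoxc, 4 of 25 were called higher and 3 lower, with Atp5g2 at +0.23 ± 0.05 and Mir148b at -0.36 ± 0.06. Beside Hoxd, Lnpk was called lower by 0.20 on the log2 scale (-0.20 ± 0.06) of 2 tested genes. Some of these neighbours overlap each other and may share fragments.

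Genes that act with or on Hox genes were compared in all nuclei. Over all genes tested, 29.1% were called higher, and 43.2% of those with means of 5 to 20. Of the 11 TALE cofactor genes, all tested, 5 were called higher and 0 lower, with a median log2 fold change of +0.21 against +0.10 for all tested genes. Tgif1, a repressor of this family, had 9.12, 12.3 and 7.54 in WT1 to WT3 and 17.8, 12.4 and 14.05 in KO1 to KO3, and KO2 lay only just above WT2. Its log2 fold change was +0.57 ± 0.15, and Pknox2 had +0.34 ± 0.11 but was called under only 11 of 18 alternative settings (lowest +0.06 under quantile normalization). Tgif1 was not called under cyclic loess, quantile normalization or with the mean weighted by fragments. Meis3 had +0.30 ± 0.11 near the threshold (limma adjusted p = 0.0442) and was called under 7 of 18 alternatives. Meis1, a stem cell cofactor also counted among the stem and progenitor markers, was not called, at +0.23 ± 0.12.

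Of 15 Trithorax and MLL complex genes, 2 were called higher and 5 lower, beside 29.1% and 14.2% of all genes tested, with a median log2 fold change of -0.01. Mllt1, which encodes a reader of acylated histones in elongation complexes, differed by +0.47 ± 0.07 (limma adjusted p = 4.48e-05). Aff1, another elongation complex gene, had 266, 234 and 241 in WT and 204, 211 and 212 in KO libraries (-0.24 ± 0.05). Hcfc1 had -0.22 ± 0.04. Ash2l, a core MLL complex gene, had +0.23 ± 0.08 and was called under 11 of 19 alternatives (lowest +0.07 under quantile normalization).

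Of 31 Polycomb genes, 10 were called higher and 7 lower, again beside 29.1% and 14.2% of all genes tested, with a median log2 fold change of -0.01. Cbx8 and Cbx2 encode chromodomain readers of the Polycomb mark and are neighbours on chromosome 11. Cbx8 had 8.88, 16.2 and 9.96 in WT and 25.6, 17.2 and 17.4 in KO libraries (+0.76 ± 0.17, limma adjusted p = 0.00256). Cbx2, which reached a mean of 5 only through the KO libraries, differed by +0.71 ± 0.17 with no filter (limma adjusted p = 0.00493), and both had all KO libraries above the WT libraries. Their scores cannot be taken as independent, since neighbours may share fragments. Pcgf2, a subunit of the first Polycomb complex, had +0.31 ± 0.04.

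The 6 caudal and ParaHox genes, relatives of the Hox family, included 2 with a mean of at least 5, Gsx1 and Cdx1, both called higher near the threshold (limma adjusted p = 0.0456 and 0.0489) but not with no filter (0.0584 and 0.0772). Of 85 other developmental homeobox genes, 59 were tested and 20 called higher and 0 lower. Of all genes tested 29.1% were called higher and 14.2% lower, and of those with means of 5 to 20 it was 43.2% higher. Their median log2 fold change was +0.25. Among those called were Six4 at +0.45 ± 0.12, Pitx1 at +0.45 ± 0.12 and Irx5 at +0.45 ± 0.06, genes for muscle, pituitary and limb, and heart and retina development. Six4 and Cdx1 reached the mean of 5 only through the KO libraries. With no filter Six4 had an adjusted p of 0.0168 (limma). Six4 was called under 14 of 16 alternative settings (lowest +0.16), Pitx1 under 14 of 18 (lowest +0.17) and Irx5 under 19 of 19. Irx5 had the highest score of Six4, Pitx1 and Irx5, at 39.1, 43.7 and 38.3 in WT and 54.6, 53.5 and 57.6 in KO libraries, without overlap.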

How the data were processed

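Single-nucleus ATAC libraries of Ter119+ erythroblasts, 3 Stag2 WT and 3 KO, were analysed. The authors deposited a gene score signal per nucleus scaled to about 10000 per nucleus (checked on the values; the weights by distance are not given in the sources used here). Per the labels the build is mm10, and per the submitters' processing notes Cell Ranger was used. The deposited table of nuclei gave fragment counts, a doublet score and transcription start site enrichment score per the file headers, and the authors' classes, clusters and share of fragment ends in peaks. Every nucleus was listed in duplicate, with equal values but a leading column of names in the second copy, and a single copy was kept. The gene score table names no genes and was read in the order of the deposited gene table.

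Scores were averaged per library over nuclei and rescaled to 1000000. Genes with a mean of at least 5 were tested as log2(score + 1), which understates the change of low genes, with limma 3.58.1 in R 4.3.3 (mean-variance trend, two-sided, Benjamini-Hochberg over all genes tested, threshold 0.05), over all nuclei and in Int and Late nuclei, and for the Late less Int difference of the genotype effect. The procedure was tested on simulated data. The fragment totals limit the precision of each mean. Doublets were not removed in the main analysis; leaving out the highest 5% of the doublet score was an alternative. Tables and figures were made with pandas 2.3.3, numpy 2.4.6 and matplotlib 3.10.9 (Python 3.11.15). The members, the gene lists and the tests were chosen with earlier results of these data known. Named with library values were members called over all nuclei (up to 12), the highest and lowest member per cluster, and Hoxa7, Hoxa9, Hoxa10, Hoxb4, Hoxb5 and Stag2, with up to 4 called genes per other list. Hoxa6, Hoxa13, Hoxb3, Hoxb9, Hoxc8, Hoxc9, Hoxc11, Hoxd4, Hoxb8, Hoxd9 and Hoxd13 were added after their values were seen. So were Meis1, Cbx1, Zfp652, Zfp652os, Gata2, Mir10b, Mir196a-2 and Mir196b, the last 3 for their position or seed. Marker lists are given by their sums. Same-numbered WT and KO libraries did not deviate together in all nuclei (correlations -0.12, -0.27 and 0.21), so the numbers were not used as pairs. Alternatives concerned the pseudocount, filter, scaling, variance trend, fragments per nucleus, clusters, replicate block and leaving out 1 library. Some items are not reported here. Protein sequences were not used here.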

Additional observations from a re-analysis of the deposited data

How the results depend on the processing

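For the Hox genes called over all nuclei (7 of 8 tested as reported) the count was 4 of 5 tested in nuclei of 5000 to 10000 fragments. It was 3 of 8 after quantile normalization, 3 of 8 after cyclic loess, 2 of 13 with the mean weighted by fragments and 1 of 1 at a filter of 20. Leaving out 1 library gave 4 to 7. In Int nuclei (4 of 13) it was 0 of 10 in cluster C5 only and 1 of 1 at a filter of 20, and 3 to 7 without 1 library. In Late nuclei (3 of 5) it was 14 of 39 with no filter and 1 of 1 at a filter of 20, and 3 to 4 without 1 library. For Late less Int it was 0, and 1 without WT3, and the count lower within libraries (31) was 15 in nuclei of 5000 to 10000 fragments. For all genes, the count over all nuclei (7661 of 17682) was 7507 of 16369 in nuclei of 5000 to 10000 fragments. It was 5439 of 17682 after quantile normalization and 5240 of 17682 after cyclic loess. It was 4244 of 10362 at a filter of 20 and 2415 of 18859 with the weighted mean, and 5355 to 8440 without 1 library. In Int nuclei (3858 of 19465) it was 171 of 19454 in C5, 3102 of 10757 at a filter of 20, 1921 with no variance trend and 2547 to 4782 without 1 library. In Late nuclei (8161 of 15886) it was 11542 of 24027 with no filter, 4560 of 9890 at a filter of 20 and 6616 to 7892 without 1 library. For the Late less Int difference (35) it was 113 (cyclic loess), 218 (filter 20), 279 (median centring), 6 (no filter), 206 (no variance trend), 120 (pseudocount 5), 199 (quantile), 12 (replicate block) and 0 to 819 without 1 library, the highest without WT3. Whether the replicate numbers pair the libraries was not settled. With the replicate number as a block the Hox counts were 7, 6, 3 and 0 in the 4 fits. The calls gained in Int nuclei include Hoxa9 (adjusted p = 0.00369).

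Signs changed for 22 single-gene values, none of them called under the alternative; 1 had been called in the analysis as reported, Skap2 in Int nuclei. Over all nuclei Hoxb1 was -0.17 under cyclic loess, -0.038 under median centring and -0.17 under quantile normalization. In Int nuclei Hoxb5 was -0.015 in nuclei of 8000 to 20000 fragments and Pknox2 -0.0065 under quantile normalization; leaving out 1 library gave Hoxb1 -0.14 to 0.0055 and Stag2 -0.036 to 0.016. In cluster C5, Hoxc4 was -0.054, Hoxb1 0.53, Stag2 0.12, Skap2 -0.032, 1700094M24Rik -0.043, Zfp652 0.0022 and Lnpk 0.36. In Late nuclei Hoxc4 was -0.053 and -0.027 and Hoxb1 -0.15 and -0.13 under cyclic loess and quantile normalization. For the Late less Int difference Hoxc4 was -0.087 and -0.068 under the same pair, and Hoxa4 -0.26 to 0.10 without 1 library. The cause was not tested. Of the other single-gene values 1688 kept direction and side of the threshold, 177 fell short of it and 47 passed it. Most Hox scores lie under the filter of 5, and the fits without a filter tested all 39.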
